A study of Rattus norvegicus with 18 samples.

Results

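A group of 8 kidney tubule carriers that move sulfate, citrate and other dicarboxylates, oxalate, and monocarboxylates such as lactate was followed in rat kidney. They were chosen by gene symbol, as Slc13a1, Slc26a1 and Slc26a6 for sulfate and oxalate, Slc13a2 and Slc13a3 for citrate and dicarboxylates, and Slc5a8, Slc5a12 and Slc16a9 for monocarboxylates. Of the 32116 genes in the deposited table, 8 are thus members. The table gives 7 of them by symbol. The row for Slc16a9 carries the clone name AABR07044759.1, which RefSeq lists as a synonym of Slc16a9. All 8 passed the filter on low values, which asked for an FPKM of 1 or more in 6 or more of 18 libraries (FPKM is the number of fragments per kilobase of gene, scaled to library depth).

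Kidneys of rats were sequenced in 3 groups of 6 libraries. The labels do not say whether whole kidneys or parts of them were taken. The SZ group was dosed daily with adenine (100 mg/kg) and SZ-A (300 mg/kg), the CKD group with that adenine dose alone, and the NC group was left untreated. Adenine feeding is a standard rat model of chronic tubular injury, in which a poorly soluble adenine product crystallises in the tubule. Both the SZ and the CKD group received adenine, and no group received SZ-A alone. Crystals were not examined here. The sources used here do not give strain, age, sex, length of dosing or what SZ-A is chemically. Nor do the labels say whether the libraries of a group came from separate animals. The p-values therefore reflect only how these libraries vary, and some of that variation may be technical.

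Sulfate, citrate and lactate are filtered at the glomerulus and largely taken back by the proximal tubule, the first and most active stretch of the nephron. A carrier in the brush border, the membrane that faces the filtrate, brings each of them into the cell, usually together with sodium. A second carrier on the blood side lets it out or, for dicarboxylates, loads the cell from blood to drive the uptake of organic anions such as drugs. Citrate that stays in the urine binds calcium, and oxalate forms its least soluble calcium salt, so both bear on stone formation.

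Each library held between 15354358 and 18532375 reads, recovered from the steps of its FPKM values. Members were read from 90 reads (Slc26a6 in an NC library) up to 32598 reads (Slc13a3 in an SZ library). Libraries CKD5, SZ3 and CKD2 stood apart in that their values fell with gene length. The slopes of log2 value against log2 gene length were -0.31 in CKD5, -0.25 in SZ3, -0.21 in CKD2 and -0.10 in CKD1, against 0.011 to 0.11 in the other 14 libraries. Ribosomal RNA took 0.174% of reads in CKD5 and 0.0809% in CKD6, against at most 0.0248% in any other library. The counts of calls, the fold changes and the ratios of the carriers are given with and without CKD2, CKD5 and SZ3. The kidney label was met by all 15 proximal tubule markers, none of which was at 0 in any group.

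The promoters of the 3 SLC13 carriers are shown first, because in CKD against NC kidneys Slc13a2 and Slc13a3 were called lower and Slc13a1 was not called. Each runs from 250 bases before to 50 bases after the annotated start, 5′ to 3′ on the gene's strand, from RefSeq on build GRCr8. Capitals mark the motifs described after them. The start of Slc13a1 lies in chr4:53612655-53612954, of Slc13a2 in chr10:63817135-63817434 and of Slc13a3 in chr3:174623844-174624143, all on the minus strand.
Slc13a1: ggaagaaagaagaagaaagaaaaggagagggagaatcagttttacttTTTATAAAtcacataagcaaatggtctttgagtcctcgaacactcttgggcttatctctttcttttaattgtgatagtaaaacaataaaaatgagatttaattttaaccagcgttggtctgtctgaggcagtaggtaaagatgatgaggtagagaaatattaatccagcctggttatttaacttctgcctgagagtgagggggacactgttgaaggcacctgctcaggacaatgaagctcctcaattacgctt
Slc13a2: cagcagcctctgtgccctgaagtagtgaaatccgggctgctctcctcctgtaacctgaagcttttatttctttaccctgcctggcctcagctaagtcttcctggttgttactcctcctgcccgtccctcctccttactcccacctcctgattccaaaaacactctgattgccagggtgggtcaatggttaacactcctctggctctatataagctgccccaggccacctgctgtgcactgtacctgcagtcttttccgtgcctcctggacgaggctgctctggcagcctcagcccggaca
Slc13a3: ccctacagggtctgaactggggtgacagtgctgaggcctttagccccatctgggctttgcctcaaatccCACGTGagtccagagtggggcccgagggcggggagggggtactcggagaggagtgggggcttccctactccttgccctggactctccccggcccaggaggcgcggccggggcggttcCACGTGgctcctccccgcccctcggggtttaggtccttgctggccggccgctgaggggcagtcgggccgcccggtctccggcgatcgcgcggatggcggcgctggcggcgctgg

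These windows differ in composition. That of Slc13a1 held 38.3% G and C with 3 CpG sites, that of Slc13a2 55.7% with 5, and that of Slc13a3 71.7% with 26, against a median of 51.7% and 7 over 33469 rat promoters of the same length. A set of 3 motifs was searched on both strands. CAAAGT, from the site of the nuclear receptor HNF4, occurred in 14.8% of all promoters, the E-box CACGTG in 6.42% and the TATA box TATAAA in 14.2%. Slc13a3 held CACGTG at positions -181 and -64 from the start, and Slc13a1 held TTTATA and TATAAA, which overlap, at -203 and -201. The windows of Slc13a2, Slc26a1, Slc5a8 and Slc5a12 held none of these exact letters. Variants of the motifs were not searched, so a window without a match may still hold one. Slc26a6 and Slc16a9 were not matched to a promoter. A match of letters is a description and not a binding site.

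In every group Slc13a3 had the highest mean level of the 8 carriers per length of gene and Slc26a6 the lowest. Slc13a3, the sodium-dicarboxylate cotransporter of the blood side, averaged 416 ± 116 FPKM in SZ, 214 ± 95.6 in CKD and 574 ± 45.5 in NC kidneys (SD, n = 6 each, as for all levels here). Slc26a6 averaged 3.43 ± 0.716 FPKM in SZ, 3.46 ± 0.766 in CKD and 3.01 ± 0.802 in NC kidneys. The place after Slc13a3 changed hands. Slc13a1 held it in SZ and CKD kidneys, where the range of its FPKM lay above that of the next carrier, Slc5a12. In NC kidneys Slc5a12 and Slc13a1, at 110 and 108 FPKM, overlapped, and Slc5a12 was above Slc13a1 in 4 of 6 libraries. Neighbours among the middle carriers mostly overlapped in FPKM. In NC kidneys the range of Slc26a1, sixth in order, lay above that of Slc16a9, seventh.

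**Figure D1:**
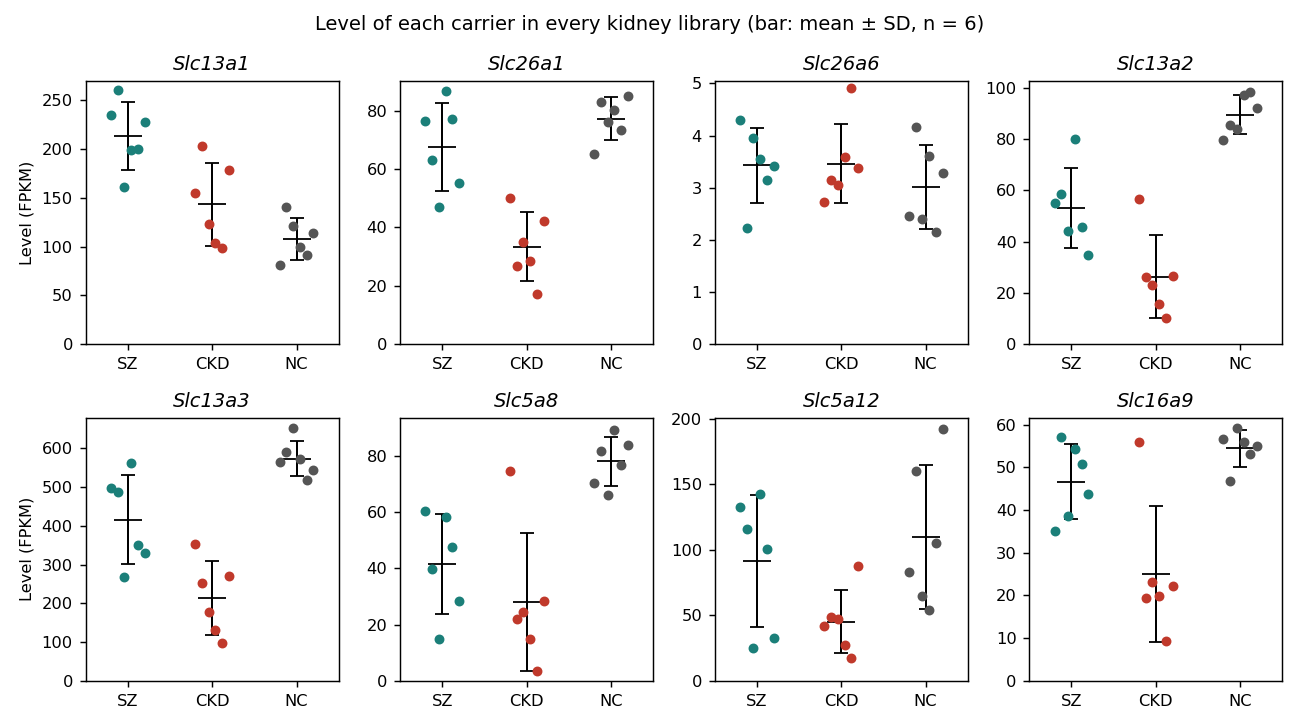
Level of each carrier in FPKM (vertical axis, from 0) in the 6 SZ, 6 CKD and 6 NC libraries, 1 point per library; the horizontal bar is the mean and the whiskers are 1 SD. Slc13a1 is highest in SZ kidneys, Slc13a2, Slc13a3 and Slc26a1 separate CKD from NC kidneys without overlap, and 1 CKD library sits well above the rest for Slc13a2, Slc5a8 and Slc16a9.

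The first comparison asked which carriers differed in kidneys given adenine alone from untreated ones. In CKD kidneys 6 of the 8 carriers were lower than in NC kidneys and 0 were higher, at an adjusted p under 0.05 in limma's moderated test on log2(FPKM + 1) with Benjamini-Hochberg adjustment over 13851 genes. Over all genes tested, 26.0% were called lower and 24.4% higher, 50.3% in all. The median log2 fold change of the 8 was -1.28, against -0.04 over all genes. For 3 of the 8, Slc13a2, Slc13a3 and Slc26a1, every CKD library lay below every NC library, and 12.2% of all genes did so. Without CKD2, CKD5 and SZ3, 5 carriers were called lower, all but Slc5a12 of the 6. In bulk kidney, fewer cells of a type and less RNA per cell cannot be told apart.

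Of the 3 sulfate and oxalate carriers, Slc26a1 passed the test in CKD against NC kidneys with FPKM as deposited. Slc13a1, the sodium-sulfate cotransporter of the brush border that takes sulfate back from the filtrate (chr4:52569375-52647099, minus strand, build mRatBN7.2), ran from 98.0 through a median of 139 to 203 FPKM in CKD kidneys, against 81.2, 106 and 140 FPKM in NC kidneys. CKD2 and CKD6 were the highest and 3 CKD libraries exceeded every NC library, but the ranges overlapped. Its log2 fold change of 0.38 (SE 0.18, 95% interval -0.0021 to 0.76) did not pass the test, with a limma adjusted p of 0.090.

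That miss depended on how libraries were scaled and which entered the fit. The FPKM of a library summed to between 336608 and 625036, and scaling each to a common sum moved the median gene up by 0.34 on the log2 scale in CKD against NC kidneys. On that scale Slc13a1 was higher in CKD kidneys by 0.83 (limma adjusted p = 0.00053), 0.49 above the median gene. With plain read totals, which moved the median gene by 0.25, the change was 0.72 (limma adjusted p = 0.0013), 0.47 above it. With FPKM as deposited it stood 0.42 above the median gene. It also passed when the 20 most abundant genes were left out of the scaling (0.51, limma adjusted p = 0.033), with array weights (0.46, limma adjusted p = 0.022), and without NC2, CKD4 or CKD5 (limma adjusted p = 0.049, 0.045 and 0.036). Such scalings also moved the share of called genes that were higher, to 83.7% with a common sum and 77.6% with plain totals, against 48.4% as deposited. It was 62.3% without the 20 most abundant genes.

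Slc26a1, the exchanger of the blood side that lets sulfate out of the cell for bicarbonate or oxalate (chr14:1040243-1045849, plus strand), ran from 17.1 through 31.8 to 50.2 FPKM in CKD kidneys, against 65.2, 78.3 and 85.2 FPKM in NC kidneys. Every CKD library was below every NC library, with CKD5 the lowest and CKD1 the highest of its group. It fell by 1.26 on the log2 scale (SE 0.20, 95% interval -1.68 to -0.84, limma adjusted p = 5.4e-05). The whole of Slc26a1, 5607 bases, overlaps Idua on the other strand, a lysosomal enzyme gene, and the strand setting of the counting is not given, so their reads cannot be told apart. Idua itself averaged 11.8 FPKM in CKD and 10.9 FPKM in NC kidneys.

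Slc26a6, the brush border exchanger of chloride for oxalate (chr8:109559642-109569778, plus strand), ran from 2.72 through 3.26 to 4.91 FPKM in CKD kidneys, against 2.14, 2.86 and 4.17 FPKM in NC kidneys. The ranges overlapped almost wholly, and CKD5, lowest of its group for the other 7 carriers, was the highest here. Its log2 fold change of 0.16 (SE 0.15, 95% interval -0.15 to 0.47) did not pass the test (limma adjusted p = 0.37). It passed with a common FPKM sum (0.51, limma adjusted p = 0.016) and with plain totals (0.43, limma adjusted p = 0.032), where it stood 0.17 and 0.18 above the median gene.

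Both sodium-dicarboxylate cotransporters were lower in CKD kidneys. Slc13a2, which takes citrate and other dicarboxylates back across the brush border (chr10:63291815-63319127, minus strand), ran from 10.1 through 24.6 to 56.7 FPKM in CKD kidneys, against 79.7, 88.9 and 98.3 FPKM in NC kidneys. No CKD library reached the NC range, and CKD1, at the top of its group, was followed by CKD6 at 26.7 FPKM. It fell by 1.91 on the log2 scale (SE 0.28, 95% interval -2.49 to -1.33, limma adjusted p = 2.0e-05).

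Slc13a3, its high-affinity relative of the blood side (chr3:154141872-154204606, minus strand), ran from 97.5 through 215 to 354 FPKM in CKD kidneys, against 518, 569 and 651 FPKM in NC kidneys. Again the groups did not overlap, with CKD5 lowest and CKD1 highest of the CKD libraries. It fell by 1.55 on the log2 scale (SE 0.26, 95% interval -2.08 to -1.01, limma adjusted p = 7.9e-05).

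All 3 monocarboxylate carriers were lower as well, with more spread. Slc5a8, the high-affinity sodium-monocarboxylate cotransporter, which in mouse lies in the later proximal tubule (chr7:23272427-23314642, plus strand), ran from 3.38 through 23.3 to 74.8 FPKM in CKD kidneys, against 66.1, 79.3 and 89.3 FPKM in NC kidneys. CKD1 alone lay inside the NC range; the other 5 CKD libraries were at most 28.3 FPKM. The log2 fold change was -1.89 (SE 0.47, 95% interval -2.87 to -0.92, limma adjusted p = 0.0024).

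Slc5a12, its low-affinity relative of the early proximal tubule in mouse (chr3:97179326-97228405, plus strand), ran from 17.1 through 44.6 to 87.3 FPKM in CKD kidneys, against 54.1, 94.1 and 192 FPKM in NC kidneys. CKD6 lay within the NC range, and untreated kidneys themselves spread widely. It fell by 1.29 on the log2 scale (SE 0.46, 95% interval -2.24 to -0.33, limma adjusted p = 0.025). It missed the threshold with a common FPKM sum (-0.84, limma adjusted p = 0.12), with plain totals (-0.95, limma adjusted p = 0.075), with libraries weighted by quality (-0.69, limma adjusted p = 0.18), and without NC2, NC6, CKD4 or CKD5 (limma adjusted p = 0.055, 0.063, 0.051 and 0.067). Without CKD2, CKD5 and SZ3 it was -1.06 (limma adjusted p = 0.053).

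Slc16a9, a monocarboxylate carrier family member that in human carries carnitine out of cells (chr20:18335862-18377022, minus strand), ran from 9.37 through 21.0 to 55.8 FPKM in CKD kidneys, against 46.7, 55.4 and 59.1 FPKM in NC kidneys. CKD1 lay within the NC range, and the other 5 CKD libraries were at or below 23.1 FPKM. It fell by 1.28 on the log2 scale (SE 0.26, 95% interval -1.82 to -0.74, limma adjusted p = 0.00048).

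The falls in CKD against NC kidneys were smaller for all 6 carriers without CKD2, CKD5 and SZ3. Slc13a2 changed by -1.67 on the log2 scale, Slc13a3 by -1.39, Slc26a1 by -0.99, Slc5a8 by -1.35 and Slc16a9 by -0.95 (limma adjusted p = 0.00013, 0.00016, 7.7e-05, 0.0024 and 0.0023). Slc13a1, at 0.37, and Slc26a6, at 0.08, again did not pass (limma adjusted p = 0.078 and 0.69).

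The second comparison asked what SZ-A went with in rats given adenine. In SZ kidneys 5 of the 8 carriers were higher than in CKD kidneys and 0 were lower, while 4.16% of all genes were called higher and 6.82% lower, 11.0% in all (limma, Benjamini-Hochberg adjusted p under 0.05). The median log2 fold change of the 8 was 0.97, against 0.0055 over all genes. No carrier separated the groups without overlap, as 2.26% of all genes did, 0.628% with SZ higher and 1.63% with SZ lower. The count of 5 also held without CKD2, CKD5 and SZ3. It was 1 without SZ4 and 1 when the 6 NC libraries were left out of the fit. Slc26a1 was the carrier still called, and the other 4 then had limma adjusted p-values between 0.051 and 0.086. Calls over all genes also fell in these fits, from 576 higher and 945 lower to 163 and 370 without SZ4. They were 143 and 411 without the NC libraries.

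Slc26a1 ran from 47.0 through 69.8 to 86.7 FPKM in SZ kidneys, against 17.1, 31.8 and 50.2 FPKM in CKD kidneys. In SZ kidneys 5 of 6 libraries lay above every CKD library, and SZ3 fell just under CKD1. On the log2 scale the change was 1.05 (SE 0.20, 95% interval 0.62 to 1.47, limma adjusted p = 0.0060). Idua, which shares the locus, averaged 11.0 FPKM in SZ and 11.8 FPKM in CKD kidneys.

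Slc13a1, unlike the other 4 called, was higher in SZ than in CKD kidneys without having been called lower in CKD than in NC kidneys. It ran from 161 through 214 to 261 FPKM in SZ kidneys, against 98.0, 139 and 203 FPKM in CKD kidneys, and 3 SZ libraries exceeded every CKD library. The log2 fold change of 0.61 (SE 0.18, 95% interval 0.22 to 0.99) passed narrowly, with a limma adjusted p of 0.041. It passed in 20 of 33 other settings, with limma adjusted p-values between 0.013 and 0.10. It missed with a common FPKM sum (0.46, limma adjusted p = 0.080), where the median gene moved by -0.12, and with plain totals (0.48, limma adjusted p = 0.058), where it moved by -0.10. It also missed with no filter on low values (limma adjusted p = 0.065) and without any 1 of NC4, CKD3, CKD4, CKD5, SZ1, SZ2, SZ4, SZ5 or SZ6.

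Slc26a6 showed no difference that the test could see. Its range was 2.23 to 4.30 FPKM with a median of 3.47 in SZ kidneys, against 2.72 to 4.91 FPKM with a median of 3.26 in CKD kidneys. The log2 fold change of -0.01 had a 95% interval of -0.32 to 0.30 (limma adjusted p = 0.97), which still holds changes of up to that size in either direction. The smallest change that could have been called after adjustment over all genes was not worked out.

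The dicarboxylate carriers were both about 1 log2 unit higher. Slc13a2 ran from 34.9 through 50.4 to 80.2 FPKM in SZ kidneys, against 10.1, 24.6 and 56.7 FPKM in CKD kidneys. All SZ libraries lay above 5 of the 6 CKD libraries, and CKD1 lay above 4 of the 6 SZ libraries. The log2 fold change was 1.12 (SE 0.28, 95% interval 0.54 to 1.70, limma adjusted p = 0.018). Slc13a3 ran from 269 through 419 to 562 FPKM in SZ kidneys, against 97.5, 215 and 354 FPKM in CKD kidneys. Of the SZ libraries, 3 exceeded every CKD library. On the log2 scale the change was 1.04 (SE 0.26, 95% interval 0.50 to 1.58, limma adjusted p = 0.018).

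Among the monocarboxylate carriers only Slc16a9 passed the test. It ran from 35.2 through 47.3 to 57.0 FPKM in SZ kidneys, against 9.37, 21.0 and 55.8 FPKM in CKD kidneys, all 6 SZ libraries lying above the 5 CKD libraries other than CKD1. The log2 fold change was 1.04 (SE 0.26, 95% interval 0.50 to 1.58, limma adjusted p = 0.018).

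Slc5a8 ran from 14.8 through 43.6 to 60.5 FPKM in SZ kidneys, against 3.38, 23.3 and 74.8 FPKM in CKD kidneys, so that the CKD range enclosed the SZ range. Its log2 fold change of 0.87 had a 95% interval of -0.11 to 1.84 (limma adjusted p = 0.22). Without CKD1 alone it was 1.24 (limma adjusted p = 0.041), without CKD5 alone it was 0.41 (limma adjusted p = 0.52), and without CKD2, CKD5 and SZ3 it was 0.59 (limma adjusted p = 0.26). Slc5a12 ran from 25.0 through 108 to 142 FPKM in SZ kidneys, against 17.1, 44.6 and 87.3 FPKM in CKD kidneys. In SZ kidneys 4 libraries lay above every CKD library, while SZ3 and SZ6 were at 25.0 and 32.5 FPKM. The log2 fold change of 0.90 had a 95% interval of -0.06 to 1.85 (limma adjusted p = 0.20), and without SZ3 it was 1.21 (limma adjusted p = 0.050, just under the threshold). Without CKD2, CKD5 and SZ3 it was 0.98 (limma adjusted p = 0.17).

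The 5 calls in SZ against CKD kidneys were also made without CKD2, CKD5 and SZ3. The log2 fold changes were then 0.70 for Slc13a1, 0.93 for Slc13a2, 1.0 for Slc13a3, 0.87 for Slc26a1 and 0.77 for Slc16a9 (limma adjusted p = 0.021, 0.045, 0.018, 0.0055 and 0.046). Slc26a6 was at 0.04 (limma adjusted p = 0.91).

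**Figure D2:**
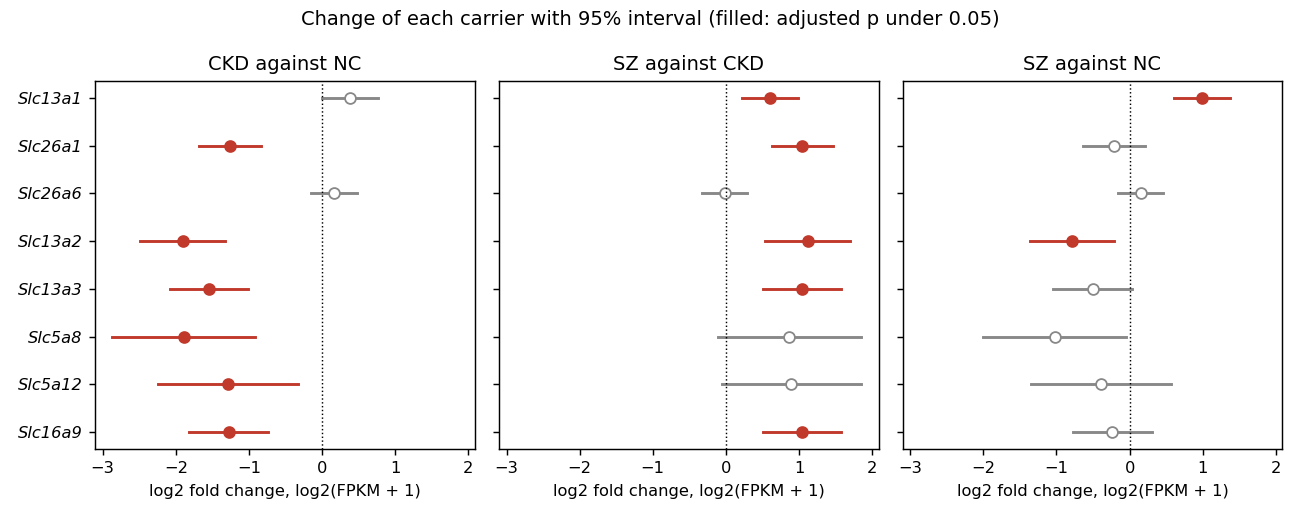
Log2 fold change of each carrier on the log2(FPKM + 1) scale (horizontal axis) for CKD against NC, SZ against CKD and SZ against NC; bars are 95% intervals from limma and filled red points have an adjusted p under 0.05. In CKD against NC kidneys 6 carriers have filled points left of 0. In SZ against CKD kidneys 5 have filled points right of it, while Slc5a8 and Slc5a12 lie right of it with open points. Slc13a1 is alone in lying right of 0 with a filled point in SZ against NC kidneys.

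The third comparison set kidneys given both agents beside untreated ones; it shares its libraries with the other comparisons. In SZ kidneys 1 carrier was called higher than in NC kidneys and 1 lower, beside 12.5% and 8.61% of all genes, 21.1% in all (limma, Benjamini-Hochberg adjusted p under 0.05). The same calls were made without CKD2, CKD5 and SZ3. The share of called genes that were higher was 59.1% as deposited and 92.8% with a common FPKM sum, which moved the median gene by 0.22. It was 88.3% with plain totals, which moved the median by 0.15, and 80.7% without the 20 most abundant genes. Of SZ against CKD calls, 37.9% were higher as deposited, 14.5% with a common sum and 17.9% with plain totals.

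Slc13a1 was the carrier called higher. Its 161 to 261 FPKM in SZ kidneys did not overlap the 81.2 to 140 FPKM of NC kidneys, which was the case for 14.6% of all genes, 8.86% with SZ higher. On the log2 scale the change was 0.99 (SE 0.18, 95% interval 0.60 to 1.37, limma adjusted p = 0.00086), and it passed in all 33 other settings. Slc13a2 was the carrier called lower, at 34.9 to 80.2 FPKM in SZ kidneys against 79.7 to 98.3 FPKM in NC kidneys. SZ4 alone reached the NC range. Its log2 fold change of -0.79 (SE 0.28, 95% interval -1.36 to -0.21) had a limma adjusted p of 0.049 and passed in 7 of 33 other settings, so this call lay at the threshold.

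For Slc5a8 every SZ library, at up to 60.5 FPKM, lay below every NC library, at 66.1 FPKM or more, as was so for 5.70% of all genes, yet the log2 fold change of -1.03 (95% interval -2.0 to -0.05) did not pass over all genes (limma adjusted p = 0.13). It passed when the CKD libraries were left out of the fit (limma adjusted p = 0.013), with array weights (-0.78, limma adjusted p = 0.016) and without CKD5 (limma adjusted p = 0.032). The other 5 carriers did not pass either, though Slc13a3 did without the CKD libraries and with array weights (limma adjusted p = 0.035 and 0.044). Their log2 fold changes were -0.51 for Slc13a3 (95% interval -1.04 to 0.03), -0.21 for Slc26a1 (-0.63 to 0.21) and -0.24 for Slc16a9 (-0.78 to 0.30). They were 0.15 for Slc26a6 (-0.16 to 0.46) and -0.39 for Slc5a12 (-1.35 to 0.57). These intervals still hold changes of some size, so equal levels in SZ and NC kidneys were not shown. Several of these values moved with SZ3. Without CKD2, CKD5 and SZ3 they were -0.08 for Slc5a12, -0.12 for Slc26a1, -0.39 for Slc13a3, -0.19 for Slc16a9, 0.12 for Slc26a6 and -0.77 for Slc5a8 (limma adjusted p = 0.90, 0.56, 0.18, 0.53, 0.58 and 0.065). The changes of Slc13a1 and Slc13a2 were then 1.07 and -0.74 (limma adjusted p = 0.00023 and 0.038).

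Comparing 2 carriers within a library nearly cancels the scaling. The log2 ratio of blood-side Slc26a1 to brush border Slc13a1 averaged -1.66 ± 0.35 in SZ, -2.10 ± 0.48 in CKD and -0.46 ± 0.20 in NC kidneys. It lay between -2.87 and -1.60 in CKD and between -0.75 and -0.30 in NC kidneys, without overlap, and the difference was -1.64. SZ kidneys, at -2.03 to -1.19, also lay wholly below NC kidneys, with a difference of -1.20. Both had an exact 2-sided permutation p of 0.0022, the smallest that exchanging libraries between groups of 6 can give, and 0.0097 after Benjamini-Hochberg adjustment over the 9 ratio tests. SZ and CKD kidneys overlapped, with a difference of 0.44 (exact permutation p = 0.089, adjusted 0.14). That difference was 0.28 without CKD2, and 0.28 to 0.54 leaving out 1 library. Without CKD2, CKD5 and SZ3 it was 0.17 (adjusted exact permutation p = 0.62), while CKD and SZ kidneys differed from NC kidneys by -1.36 and -1.18 (adjusted exact permutation p = 0.021 and 0.019).

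Within the dicarboxylate pair, the log2 ratio of Slc13a3 to Slc13a2 averaged 2.95 ± 0.24 in SZ, 3.03 ± 0.25 in CKD and 2.67 ± 0.21 in NC kidneys. The CKD to NC difference of 0.36 had an exact permutation p of 0.024 and missed the threshold after adjustment (0.071). Without CKD1 it was 0.44 with an adjusted exact permutation p of 0.019. The SZ to CKD difference was -0.08 (exact permutation p = 0.57, adjusted 0.64) and the SZ to NC difference 0.28 (exact permutation p = 0.054, adjusted 0.12). These differences without CKD2, CKD5 and SZ3 were 0.28, 0.070 and 0.35 (adjusted exact permutation p = 0.17, 0.64 and 0.065).

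The log2 ratio of Slc5a8 to Slc5a12 averaged -0.98 ± 0.47 in SZ, -0.95 ± 0.98 in CKD and -0.35 ± 0.69 in NC kidneys. CKD libraries ran from -2.05 in CKD5 to 0.81 in CKD1, wider than the NC range of -1.18 to 0.71. No difference passed, with exact permutation p-values of 0.24 for CKD against NC, 0.95 for SZ against CKD and 0.093 for SZ against NC (adjusted 0.31, 0.95 and 0.14). The differences were -0.61, -0.03 and -0.63, and without CKD2, CKD5 and SZ3 they were -0.29, -0.40 and -0.69 (adjusted exact permutation p = 0.64, 0.64 and 0.17).

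**Figure D3:**
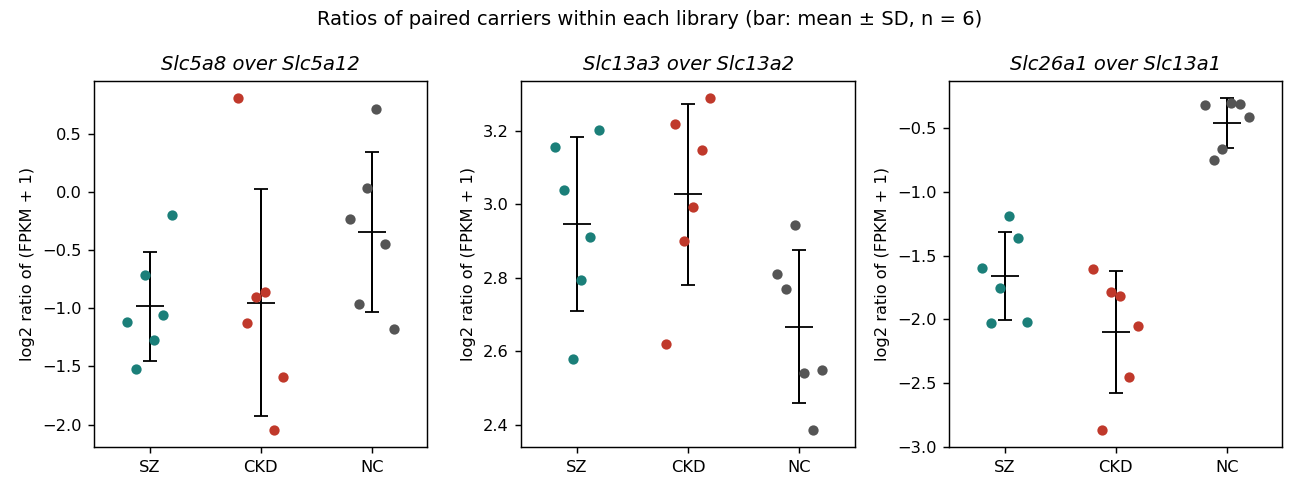
Log2 ratio of (FPKM + 1) between paired carriers within each library (vertical axis) in SZ, CKD and NC kidneys, 1 point per library, with mean and SD (n = 6 each). The ratio of Slc26a1 to Slc13a1 is lower in all SZ and CKD libraries than in any NC library, while the other pairs overlap between groups.

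With deviations from the group means pooled over all groups, 7 of the carriers varied in the same direction to different degrees and Slc26a6 ran the other way. Over the 18 libraries, deviations from the group mean of log2(FPKM + 1) had their highest Pearson r, 0.94, between Slc26a1 and Slc5a8. Slc13a2 and Slc13a3 followed at 0.90. Slc13a1 had r of 0.31 to 0.71 with the 6 carriers other than Slc26a6, the highest with Slc13a3. Slc5a12 had r of 0.29 with Slc16a9 and 0.70 with Slc26a1. Slc26a6 had negative r with all 7, from -0.17 with Slc13a1 to -0.64 with Slc16a9. These are descriptions, since libraries share depth, scaling and cell make-up, and 1 library such as CKD5 enters every pair. The groups also did not weigh equally. The SD of Slc13a2 was 61.3% of its mean in CKD, 29.5% in SZ and 8.47% in NC kidneys. That of Slc5a8 was 87.8%, 42.7% and 11.2%, while that of Slc5a12 was 53.4%, 55.4% and 50.2%. Correlations within each group alone were not computed, so whether NC or SZ kidneys by themselves vary this way was not tested.

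**Figure D4:**
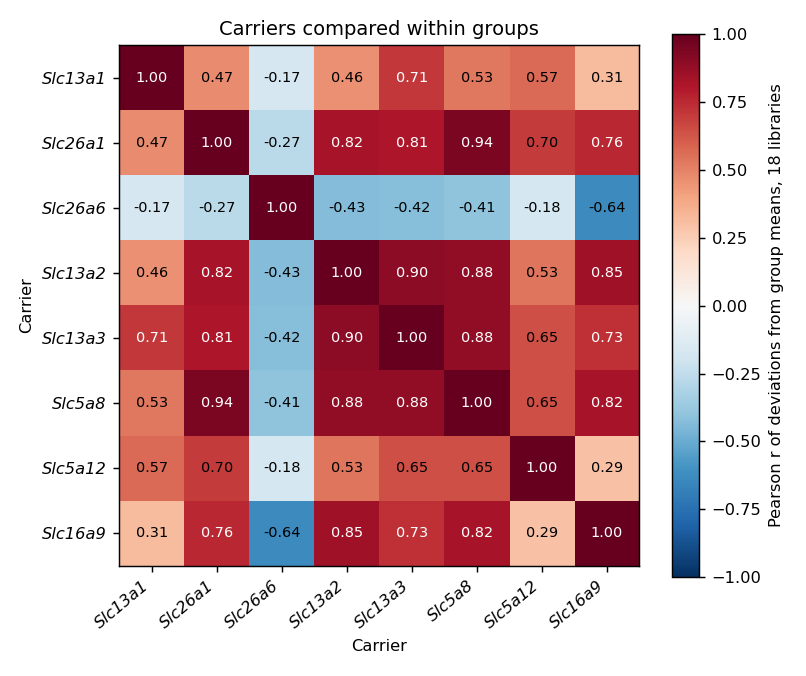
Pearson r between carriers of deviations from the group mean of log2(FPKM + 1), over 18 libraries; both axes list the 8 carriers and colour gives r from -1 (blue) to 1 (red). Slc26a6 is blue against every other carrier and the block from Slc26a1, Slc13a2, Slc13a3 and Slc5a8 is the reddest, with r of 0.81 to 0.94.

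By the same measure over 18 libraries, the genes most like each carrier were named as a description. Slc13a3 varied most like Slc22a6 and Slc22a8 (r 0.98 and 0.95), the organic anion transporters that exchange blood-side anions for dicarboxylates. Slc13a2 was closest to Gpd1, a glycerol phosphate dehydrogenase, and Aco1, the cytosolic aconitase that acts on citrate (0.97 and 0.96). Slc5a12 came with the amino acid carrier Slc7a8 (0.96). Slc5a8 was closest to Ca12, a carbonic anhydrase, and Dlat, a subunit of pyruvate dehydrogenase (0.96 and 0.95). Slc26a1 came with Slc5a8 and Efhc2 (0.94 and 0.93), and Slc16a9 with Egf, made in the distal tubule, and Pdha1 (0.93 and 0.91). Slc13a1 reached 0.84 with Gatm, the first enzyme of creatine synthesis, and 0.83 with Tapt1. Slc26a6 reached 0.87 with the mitotic kinase gene Bub1b and 0.86 with Srsf11.

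Levels of proximal tubule markers moved in the direction of most carriers. Slc13a1 (0.38) and Slc26a6 (0.16) did not fall in CKD against NC kidneys, and Slc26a6 (-0.01) did not rise in SZ against CKD kidneys. In CKD against NC kidneys 10 of the 15 markers were called lower and 0 higher (limma), from Miox (-1.86) to Slc5a1 (-0.66). Over all genes tested, 26.0% were called lower and 24.4% higher. In SZ against CKD kidneys 7 were called higher and 0 lower, among them Lrp2 (1.09), Slc34a1 (0.99) and Aqp1 (0.88). There 4.16% of all genes were called higher and 6.82% lower. Their summed level was 5543 to 7648 FPKM in SZ, 1892 to 5953 in CKD and 8492 to 10125 in NC kidneys. Within CKD kidneys the sum was lowest in CKD5 and highest in CKD1, as were Slc13a2, Slc13a3, Slc26a1, Slc5a8 and Slc16a9. In SZ against NC kidneys 0 of the 15 markers were called, with a median log2 fold change of -0.34. Slc13a1 was called higher there, and Slc13a2 was called lower at the threshold (limma adjusted p = 0.049). Whether these carriers differed from the markers was not tested. Markers of injured proximal tubule went the other way. In CKD against NC kidneys 7 of 7 tested were higher, from Havcr1 (7.10) to Sox9 (0.83), and in SZ against CKD kidneys 2 of 7, Krt8 and Cdkn1a, were lower. Summed, they were 282 to 661 FPKM in SZ, 403 to 962 in CKD and 92.0 to 108 in NC kidneys. Macrophage markers were higher in CKD against NC kidneys for 8 of 8, and lower in SZ against CKD kidneys for 7 of 8. Summed, they were 147 to 380 FPKM in SZ, 334 to 1136 in CKD and 33.2 to 64.0 in NC kidneys. The part of these markers in the carriers' changes was not tested.

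Relatives of the carriers were followed as lists, and their counts and medians stand beside those of all genes tested. In CKD against NC kidneys 26.0% of all genes were called lower and 24.4% higher, with a median log2 fold change of -0.04. In SZ against CKD kidneys 4.16% were called higher and 6.82% lower, with a median of 0.0055. The same values apply to each list below, and no list was tested as a set. Of 3 tested SLC13 and SLC26 relatives, 2 were lower in CKD than in NC kidneys and 0 higher, and 1 was higher in SZ than in CKD kidneys. Slc26a4, the chloride-bicarbonate exchanger pendrin of the collecting duct, averaged 31.7 ± 10.4 FPKM in SZ, 16.4 ± 4.86 in CKD and 63.9 ± 25.2 in NC kidneys. It changed by -1.86 on the log2 scale in CKD against NC (limma adjusted p = 1.5e-05) and 0.90 in SZ against CKD kidneys (limma adjusted p = 0.035). Slc26a11 fell by 0.76 in CKD against NC kidneys (limma adjusted p = 0.021).

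Of 10 tested relatives of Slc16a9 and their ancillary proteins, 7 were lower in CKD than in NC kidneys and 0 higher, and 4 were higher in SZ than in CKD kidneys and 0 lower. Slc16a4, an orphan of the family, averaged 120 ± 18.4 FPKM in SZ, 58.1 ± 40.5 in CKD and 218 ± 37.1 in NC kidneys. Its log2 fold changes were -2.18 in CKD against NC and 1.33 in SZ against CKD kidneys (limma adjusted p = 4.6e-05 and 0.021). The median of this list was -1.01 in CKD against NC and 0.63 in SZ against CKD kidneys. Slc16a5, with the smallest called change, fell by 0.84 (limma adjusted p = 0.00031). In SZ against CKD kidneys Slc16a6, a ketone body exporter in zebrafish, was higher by 0.98 (limma adjusted p = 0.0085) and Slc16a5 by 0.58 (limma adjusted p = 0.029).

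Of the scaffold proteins that hold carriers in the brush border and Pdzk1ip1, a partner protein of Pdzk1, 4 genes were tested in all. Pdzk1, which binds the tail of several carriers, averaged 367 ± 45.0 FPKM in SZ, 248 ± 91.8 in CKD and 524 ± 35.9 in NC kidneys. It fell by 1.16 in CKD against NC kidneys (limma adjusted p = 6.2e-05) and was higher by 0.64 in SZ against CKD kidneys (limma adjusted p = 0.037). Slc9a3r1, the scaffold NHERF1, fell by 0.62 in CKD against NC kidneys (limma adjusted p = 0.0024). Slc9a3r2 fell by 0.43 in SZ against CKD kidneys (limma adjusted p = 0.041). The remaining gene, Pdzk1ip1, did not pass in either comparison.

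Of 12 tested genes that activate sulfate or oxidise sulfur to it, 10 were lower in CKD than in NC kidneys and 0 higher, with a median of -0.78. Those called ran from a log2 fold change of -1.69 for Cdo1, the first step of cysteine oxidation (limma adjusted p = 0.013), to -0.49 for Slc35b3, a carrier of activated sulfate into the Golgi (limma adjusted p = 0.0033). Higher in SZ against CKD kidneys were 2, Ethe1 by 0.78 and Suox, which makes sulfate from sulfite, by 0.59 (limma adjusted p = 0.022 and 0.048). In SZ against NC kidneys 6 of the 12 were lower, beside 8.61% of all genes, while Slc13a1 was higher.

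Of 14 tested genes that handle citrate and dicarboxylates, 12 were lower in CKD than in NC kidneys and 0 higher, with a median of -0.82. Log2 fold changes of those called ran from -2.0 for Slc22a6 (limma adjusted p = 1.3e-05) to -0.41 for citrate synthase, Cs (limma adjusted p = 0.0020). Higher in SZ against CKD kidneys were 3, Slc22a6 by 1.41, Slc22a8 by 1.36 and the mitochondrial dicarboxylate carrier Slc25a10 by 0.67 (limma adjusted p = 0.0070, 0.020 and 0.027). Slc22a6 averaged 376 ± 110 FPKM in SZ, 154 ± 84.7 in CKD and 549 ± 58.8 in NC kidneys.

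Of 10 tested genes of lactate, pyruvate and ketone body use, 8 were lower in CKD than in NC kidneys and 1 higher, with a median of -1.24. Pck1, an enzyme of glucose synthesis from lactate and pyruvate, fell by 1.99 (limma adjusted p = 0.00049). The lactate dehydrogenase subunit of glycolytic cells, Ldha, was higher by 0.68 (limma adjusted p = 0.00018). Ldha averaged 119 ± 19.2 FPKM in SZ, 135 ± 19.8 in CKD and 83.6 ± 9.79 in NC kidneys. In SZ against CKD kidneys 3 were higher, Ldhd, which oxidises D-lactate, by 0.86, and the ketone body enzymes Oxct1 by 0.79 and Acat1 by 0.60 (limma adjusted p = 0.012, 0.032 and 0.045).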

How the data were processed

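RNA of 18 rat kidney libraries was deposited by the authors as 1 table of FPKM values. Reads were aligned with HISAT2 2.0.5 to mRatBN7.2, as far as the submitters' processing notes name tool and build. Which program counted the reads, with which annotation and whether by strand, is not given in these sources. FPKM times gene length gave whole reads for 100% of values within 0.01 read, so depth per library is known; counting error is small for all carriers but Slc26a6.

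From the deposited FPKM, log2(FPKM + 1) was fitted with limma 3.58.1 in R 4.3.3 as 1 mean per group in all 18 libraries together, with prior variance following intensity. P-values were 2-sided, adjusted by Benjamini-Hochberg over the 13851 genes with FPKM of at least 1 in at least 6 libraries, and called under 0.05. Fold changes on this scale understate those of low genes. Ratios of carriers were compared by exact permutation, with code written for the purpose and checked against scipy 1.17.1. Python 3.11.15, pandas 2.3.3 and matplotlib 3.10.9 served for tables and figures, and the fit was tested on simulated data. Groups came from the labels. All 8 carriers are named whatever their values. From each related list the called genes with the largest and smallest change in CKD against NC kidneys, and up to 3 called in SZ against CKD kidneys, are named; for each carrier the 2 genes of highest r are named. Some genes that this rule names are not reported here. Members and lists were chosen with earlier results of these data known.

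Alternatives covered the pseudocount (0.1), the filter (none, or a mean FPKM of at least 5), 5 other scalings or corrections (a common FPKM sum, a scaling without the 20 most abundant genes, the trimmed mean of M-values, plain read totals, and a lowess correction for gene length), the variance model, array weights, voom on the recovered reads, a fit of only the libraries compared, a block for replicate number, and omission of libraries. Deviations of libraries with the same replicate number had correlations from -0.36 to 0.23, so the numbers were not taken to pair libraries.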

Additional observations from a re-analysis of the deposited data

Results flagged for a closer look

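Library CKD1 stood above the other 5 CKD libraries for 3 carriers. Its level was 56.7 FPKM for Slc13a2, 74.8 FPKM for Slc5a8 and 55.8 FPKM for Slc16a9, and its gap to the next CKD library took 0.644, 0.651 and 0.704 of the range of that group, more than Dixon's 95% limit for 6 samples allows. Of 33 groups of 6 values tested, 3 were singled out in this way, all of them CKD1. Chance alone does so in about 1 in 20 independent groups with normally spread values. These groups are not independent. The 3 carriers varied together (r of 0.82 to 0.88), and the groups of ratios reuse the values of the carriers. The 3 are thus 1 observation about CKD1. Without CKD1 the log2 fold changes in CKD against NC kidneys were -2.16 for Slc13a2, -2.26 for Slc5a8 and -1.54 for Slc16a9. In SZ against CKD kidneys they were then 1.37, 1.24 and 1.30. CKD1 also had the highest summed proximal tubule marker level of the CKD libraries, 5953 FPKM, against 1892 to 5158 FPKM in the other 5. The part of that level in the outlying values was not tested.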

How the results depend on the processing

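Of 24 changes of the 8 carriers under 33 other settings, 789 values in all, 709 kept their direction and side of the threshold, 53 lost the call, 17 gained one and 10 changed sign. Slc26a6 did not reach a mean FPKM of 5 and has no value under that filter. Sign changes touched 4 changes, none of them called. They were Slc26a6 in SZ against CKD kidneys (0.0059 with trimmed mean of M-values scaling, 0.0037 with the lowess correction, 0.035 without CKD2, CKD5 and SZ3, and -0.068 to 0.075 leaving out 1 library), and in SZ against NC kidneys Slc26a1 (0.090 with a common FPKM sum, 0.0013 with plain totals), Slc16a9 (0.066 with a common sum) and Slc5a12 (0.11 with array weights).

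The number of carriers called in SZ against CKD kidneys was 5, and 1 with only the libraries compared, and 1 to 6 leaving out 1 library. In SZ against NC kidneys it was 2. It was 4 with array weights or only the libraries compared, 1 to 3 leaving out 1 library, and 1 with pseudocount 0.1, no filter, a mean FPKM of at least 5, each of the 5 other scalings or corrections, no trend, robust variance or voom. Genes called in CKD against NC kidneys numbered 6973, and 4447 with a mean of at least 5, where fewer genes were tested. In SZ against CKD kidneys they numbered 1521, 554 with only the libraries compared, 2830 with array weights and 533 to 3058 leaving out 1 library. In SZ against NC kidneys they numbered 2919, 1627 with a mean of at least 5 and 5492 with array weights. The SZ against CKD difference in the ratio of Slc5a8 to Slc5a12, -0.03, was 0.017 with pseudocount 0.1, 0.0023 with the lowess correction and -0.25 to 0.32 leaving out 1 library. That of Slc13a3 to Slc13a2 was 0.070 without CKD2, CKD5 and SZ3, and its CKD against NC difference was 0.30 to 0.44 leaving out 1 library. Except where stated, the cause was not tested.

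With the replicate number as a block, 7, 5 and 1 carriers were called in CKD against NC, SZ against CKD and SZ against NC kidneys. Of all 13851 genes, 3246 were then called higher and 3390 lower in CKD against NC kidneys. The counts were 425 and 770 in SZ against CKD and 1605 and 979 in SZ against NC kidneys. Slc13a1 gained a call in CKD against NC kidneys (limma adjusted p = 0.045) and Slc13a2 lost its call in SZ against NC kidneys (limma adjusted p = 0.067). Pairing correlations were -0.05 to 0.23, -0.36 to 0.04 and -0.02 to 0.21. The ratio of Slc26a1 to Slc13a1 kept its differences of -1.64 and -1.20 in the paired fit with an adjusted exact permutation p of 0.094, where 6 pairs allow no p below 0.031 before adjustment.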

Other observations

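Genes of glyoxylate and oxalate metabolism, a pathway that can yield the oxalate carried by Slc26a1 and Slc26a6, were lower in CKD than in NC kidneys for 5 of 6 tested and higher for 0 (limma). Over all genes tested, 26.0% were lower and 24.4% higher. Hao2, a peroxisomal hydroxyacid oxidase abundant in rat kidney, averaged 2350 ± 231 FPKM in SZ, 1263 ± 668 in CKD and 3529 ± 415 in NC kidneys. It fell by 1.62 on the log2 scale in CKD against NC kidneys and was higher by 1.04 in SZ against CKD kidneys (limma adjusted p = 4.4e-05 and 0.018). Agxt2, a mitochondrial aminotransferase that uses glyoxylate, with the smallest called change, fell by 0.75 (limma adjusted p = 0.0013). Grhpr, which reduces glyoxylate and so keeps it from becoming oxalate, was higher by 0.88 in SZ against CKD kidneys (limma adjusted p = 0.020).

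Of 10 tested transcription factors known to act in the proximal tubule, 8 were lower in CKD than in NC kidneys and 1 higher, and in SZ against CKD kidneys 4 were higher and 1 lower (limma). Over all genes tested, 26.0% were lower and 24.4% higher in CKD against NC kidneys. In SZ against CKD kidneys 4.16% of all genes were higher and 6.82% lower. Hnf4a averaged 136 ± 18.3 FPKM in SZ, 79.8 ± 31.3 in CKD and 191 ± 7.94 in NC kidneys. It fell by 1.34 on the log2 scale in CKD against NC kidneys and was higher by 0.84 in SZ against CKD kidneys (limma adjusted p = 2.1e-05 and 0.014). Ppara, a regulator of fatty acid use, fell by 2.08 in CKD against NC kidneys (limma adjusted p = 0.00023). Cebpd, an acute phase regulator, averaged 17.6 ± 8.59 FPKM in SZ, 56.9 ± 21.0 in CKD and 14.9 ± 9.36 in NC kidneys. It was higher by 2.03 in CKD against NC kidneys and fell by 1.69 in SZ against CKD kidneys (limma adjusted p = 0.00026 and 0.013).

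Markers of other kidney cells moved too. Over all genes tested, 26.0% were called lower and 24.4% higher in CKD against NC kidneys. In SZ against CKD kidneys 4.16% of all genes were called higher and 6.82% lower. Loop of Henle and distal tubule markers were lower in CKD than in NC kidneys for 7 of 8 and higher for 1, and 0 of 8 were called in SZ against CKD kidneys. Collecting duct markers were lower for 7 of 8, with 3 higher in SZ against CKD kidneys, and podocyte markers were lower for 5 of 5. Fibroblast and mural cell markers were higher in CKD than in NC kidneys for 7 of 7, and 3 were lower in SZ than in CKD kidneys. Markers of T and NK cells were higher in CKD than in NC kidneys for 4 of 5, and of B and plasma cells for 2 of 2. Endothelial markers were lower for 2 of 5, and of 2 adipocyte markers 1 was higher and 1 lower. The counts for endothelium, adipocytes, and B and plasma cells are too small to be set apart from the shares of all genes. No marker list was tested as a set. Adrenal and urothelial markers had no gene above the filter.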
